A study of Mus musculus with 2 samples.

Results

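The integrin and laminin subunits are the receptor and ligand sides of the adhesion between a cell and its basement membrane. They were taken by name among protein-coding genes (integrin alpha subunits Itga, integrin beta subunits Itgb and laminin chains Lama, Lamb and Lamc), which gave 38 rows for 37 gene symbols out of 53465 rows, 22040 of them protein-coding. These were 18 alpha and 8 beta integrin subunits and 11 laminin chains. No measured value entered the choice. The cells were endothelial cells taken from C57Bl/6 mice with the genotype tie2-cre, with 1 library labelled GFP and 1 labelled NeuroD1, a transcription factor of neuronal differentiation. The labels give neither the vector nor the dose. Both groups carried the Cre transgene, and Tie2, which names it, is known to be active in endothelium and in part of the blood cell lineage. Cells of 3 mice were collected, and the labels do not say whether that is per library, and 10000 cells were lysed. Neither age nor the time after treatment is given in the labels.

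An integrin is a dimer of an alpha and a beta subunit that links the matrix outside a cell to the actin skeleton inside it. Endothelial cells are known for alpha6 beta1, a laminin receptor, alpha5 beta1, a fibronectin receptor, and alpha1 beta1, a collagen receptor. Leukocytes carry the beta2 and beta7 dimers, which bind adhesion molecules on other cells. A laminin is a trimer of an alpha, a beta and a gamma chain. The vessel wall is known for alpha4 and alpha5 chains joined to beta1 or beta2 and gamma1, whereas astrocytes and meninges add alpha1 and alpha2.

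Values are FPKM, fragments per kilobase of exon, as the authors scaled the libraries. The reads behind them were recovered from the values, 2062499 for GFP and 2047285 for NeuroD1. Genes above 1000 FPKM took so many of them that 1010168 and 897823 were left for the rest. At equal exon length, 1 NeuroD1 read was worth 1.13 times the FPKM of 1 GFP read. The total reads were nearly alike, so the scaling was not by total reads alone, and the ratios below rest on it. The sum of FPKM was 1.18 times as high in NeuroD1 as in GFP. The members had a median of 48.5 reads in GFP and 47 in NeuroD1, against 24 and 21 for protein-coding genes. Neurod1 stood at 0.664 FPKM with GFP and 182 with NeuroD1. The 12 endothelial markers checked were above 0 in both libraries, with a median of 11.1 FPKM with GFP and 11.5 with NeuroD1. They summed to 186 and 205 FPKM. For 4 of the 12 the exact 95% interval of the ratio of NeuroD1 to GFP lay above 1, and for none below. Among protein-coding genes with at least 20 reads, 6.06% lay above 1 and 6.39% below. Odorant, taste and vomeronasal receptor genes, unlikely to be used in vessels, held reads as well. Among these 1513 chemoreceptor genes the median was 1.54 FPKM with GFP and 1.40 with NeuroD1, and the 95th percentile, used below as the top of the chemoreceptor range, was 4.39 and 4.79 FPKM.

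The integrins assigned to endothelium were led by the laminin receptor subunits. Itga6 (chromosome 2, 71745616 to 71858416 in GRCm38, the build of all gene positions given here), the alpha chain of both laminin-binding dimers alpha6 beta1 and alpha6 beta4, stood at 8.28 FPKM with GFP and 7.84 with NeuroD1, on 165 and 138 reads. Its ratio of NeuroD1 to GFP was 0.947, with an exact 95% interval of 0.750 to 1.19 that covers counting error only. Itgb1 (chromosome 8, 128685654 to 128733200), the beta chain shared by most matrix-binding dimers, stood at 6.43 and 7.16 FPKM (ratio 1.11, interval 0.759 to 1.63). Both chains of alpha6 beta1 were therefore above the chemoreceptor range in each library, and neither differed between the libraries beyond counting error.

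Itgb4 (chromosome 11, 115974709 to 116008412), which pairs with alpha6 and anchors to intermediate filaments, stood at 8.002 FPKM with GFP and 5.77 with NeuroD1. Its 124 and 79 reads gave a ratio of 0.722 (interval 0.537 to 0.965), the one endothelial subunit of 10 whose interval excluded 1, where such intervals were found for 12.4% of the protein-coding genes that held 20 reads or more. Itga5, the fibronectin receptor chain, stood at 6.73 and 5.54 FPKM (ratio 0.824, interval 0.556 to 1.21). The laminin receptor chain Itga3 had nearly the same level in both libraries, 4.757 and 4.759 FPKM (interval 0.678 to 1.47). Itgb5, a partner of alphaV, stood at 5.12 and 4.58 FPKM. Of the 10 subunits, 4 (Itga5, Itga6, Itgb1 and Itgb4) lay above the chemoreceptor range in both libraries. So did 10 of the 38 member rows and 4379 of the 22040 protein-coding genes.

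Itga3 and Itgb5 lay above that range with GFP only, and the remaining 4 endothelial subunits lay within it in both libraries. Itga1, a collagen receptor chain and the longest of the members, stood at 3.33 and 4.05 FPKM on 137 and 147 reads (ratio 1.22, interval 0.956 to 1.55). Its neighbour on chromosome 13, the collagen receptor chain Itga2, stood at 2.602 and 2.88 FPKM. The vitronectin receptor chains Itgav and Itgb3 stood at 2.53 and 1.92 FPKM in GFP and at 2.195 and 2.78 FPKM in NeuroD1, with intervals of 0.578 to 1.30 and 0.832 to 2.55. By these levels the chains of alpha6 beta1 and alpha5 beta1 stood above those of alphaV beta3 in each library. This order depends on the division by exon length. In reads, Itgav held 60 in GFP and 46 in NeuroD1, near Itga5 at 66 and 48 and Itgb1 at 58 and 57. Itga6 held 165 and 138 reads, and Itgb3 held 25 and 32.

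**Figure D1:**
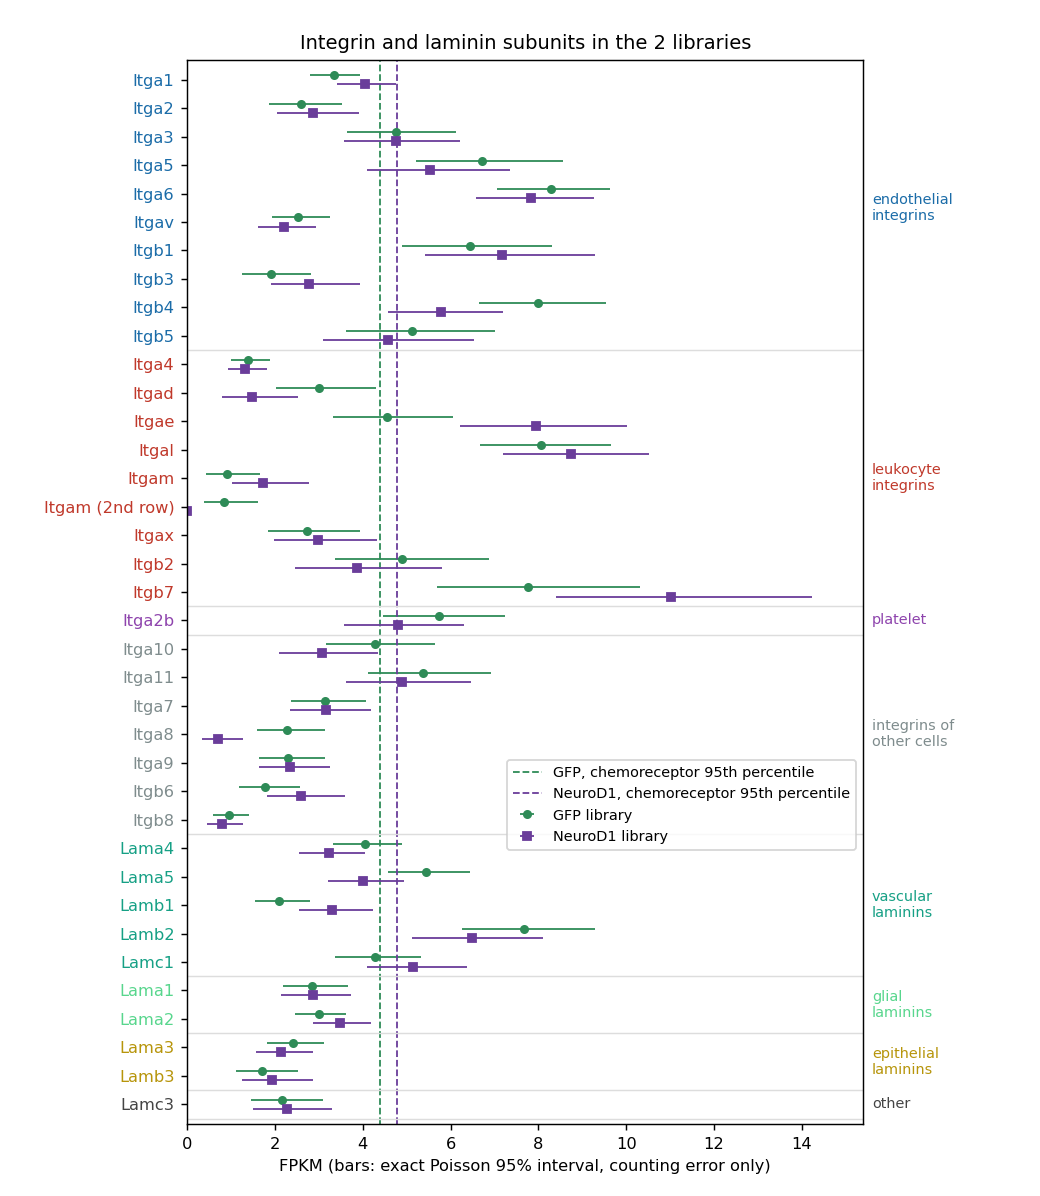
FPKM of 37 of the 38 integrin and laminin rows in the GFP library (circles) and the NeuroD1 library (squares), grouped by class, with exact Poisson 95% intervals that cover counting error only and dashed lines at the 95th percentile of chemoreceptor genes (4.39 FPKM in GFP, 4.79 FPKM in NeuroD1). Of the rows drawn, 10 lie beyond both lines, among them Itga6, Itgb1, Itgal and Itgb7, beside 4379 of 22040 protein-coding genes. The second row named Itgam is at 0 in NeuroD1, where no interval is drawn.

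Subunits assigned to leukocytes spanned a wider range of levels, and some stood as high as the leading endothelial ones. Itgal (chromosome 7, 127296260 to 127335138), the alpha chain of LFA-1, stood at 8.06 FPKM with GFP and 8.74 with NeuroD1, on 117 and 112 reads (ratio 1.08, interval 0.829 to 1.42). It was the second highest of all members in both libraries. Its partner Itgb2, the common beta chain of LFA-1 and of the myeloid dimers, reached less, 4.89 and 3.86 FPKM (ratio 0.789, interval 0.443 to 1.39).

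Both chains of alphaE beta7, known from lymphocytes that sit in epithelia and bind E-cadherin, were higher in NeuroD1 in value. Itgae (chromosome 11, 73090583 to 73147446) stood at 4.55 FPKM with GFP and 7.95 with NeuroD1, and its 46 and 71 reads gave a ratio of 1.75 (interval 1.19 to 2.59). Itgb7 (chromosome 15, 102215995 to 102231944) stood at 7.76 and 11.03 FPKM, the highest member level in NeuroD1, but its 47 and 59 reads left an interval of 0.953 to 2.13 around a ratio of 1.42. The other alpha partner of beta7, Itga4, also a partner of beta1 in VLA-4, was low in both, at 1.39 and 1.32 FPKM (interval 0.592 to 1.51). E-cadherin itself, Cdh1, chosen after its values were seen, stood at 4.75 and 4.71 FPKM (interval 0.639 to 1.53).

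The myeloid alpha chains form a cluster on chromosome 7 with Itgal. Itgax, the chain of CD11c, stood at 2.73 and 2.99 FPKM, and Itgad, the chain of CD11d, at 3.01 and 1.48 FPKM on 30 and 13 reads (ratio 0.491, interval 0.235 to 0.970). Itgam, the chain of CD11b, had 2 rows. The annotated gene stood at 0.901 and 1.74 FPKM on 10 and 17 reads. A second row of that name is, in the annotation, the readthrough gene Gm49368, and stood at 0.848 FPKM on 9 reads in GFP and at 0 in NeuroD1, where no reads allow up to 0.320 FPKM.

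These rows share sequence, since 68.7% of the Itgam exon bases lie in exons of Gm49368. How shared reads were counted was not stated, so both the split of reads between the rows and their total are uncertain. The listed reads of both rows together were 19 in GFP and 17 in NeuroD1, a ratio of 1.01 (interval 0.495 to 2.06). The opposite directions of the rows were thus not seen in their sum. For Itgad, 19.7% of the exon bases are shared with other genes, which leaves its reads uncertain too.

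The 9 leukocyte rows had a median of 3.01 FPKM with GFP and 2.99 with NeuroD1, and the 10 endothelial subunits a median of 4.94 and 4.67 FPKM. The ranges overlapped widely, from 0.848 to 8.06 FPKM for the former in GFP and from 1.92 to 8.28 FPKM for the latter. Of the leukocyte rows 3 (Itgal, Itgae and Itgb7) lay above the chemoreceptor range in both libraries, beside 4379 of 22040 protein-coding genes. General leukocyte markers summed to 29.6 FPKM with GFP and 29.9 with NeuroD1, with all 10 above 0. Beyond the chemoreceptor range were 2 of 10 in GFP (Coro1a at 4.88 FPKM and Arhgdib at 4.77 FPKM) and none in NeuroD1. Of the 22040 protein-coding genes, 6605 were beyond it in GFP and 5421 in NeuroD1. T and NK cell markers summed to 60.7 and 74.7 FPKM, with none of 10 at 0, and the cytotoxic protease Gzma stood at 25.6 FPKM with GFP and 39.8 with NeuroD1 (ratio 1.55, interval 1.09 to 2.22). Of the 162 protein-coding genes with a mean of 20 to 50 FPKM, 85.2% were higher in NeuroD1 in value. Without Gzma the other 9 T and NK cell markers summed to 35.0 and 34.9 FPKM, 4 of them higher and 5 lower in NeuroD1 in value, among them Cd8a at 3.49 and 2.26 FPKM (interval 0.327 to 1.24, chosen after its values were seen). The kinase Lck was at 8.35 and 8.58 FPKM. Microglia markers summed to 31.8 and 22.6 FPKM, with 1 of 10 higher in NeuroD1 in value and 9 lower. Neutrophil markers summed to 73.5 and 77.6 FPKM, with 5 of 10 higher and 5 lower. Of 6 neutrophil markers past 5 FPKM, 1 was 2-fold higher and 2 were 2-fold lower, beside 3.25% and 3.31% of protein-coding genes. Neither list held a marker at 0. The part of such cells in the leukocyte subunit values was not tested, and in a bulk sample fewer cells of a type and less RNA per cell cannot be told apart.

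The platelet fibrinogen receptor chain Itga2b stood at 5.73 FPKM with GFP and 4.79 with NeuroD1 on 69 and 51 reads (ratio 0.837, interval 0.571 to 1.22). Platelet markers summed to 26.6 and 16.3 FPKM, with none of 8 at 0, 1 higher in NeuroD1 in value and 7 lower. The part of platelets in the value of Itga2b was not tested. Among the 7 subunits assigned to other cells, the collagen receptor chain Itga11 was highest, at 5.38 and 4.897 FPKM (interval 0.612 to 1.35). Itga8 (chromosome 2, 12106632 to 12301922), a chain of mesenchymal and smooth muscle cells, stood at 2.27 FPKM with GFP and 0.696 with NeuroD1. Its 37 and 10 reads gave the lowest ratio of any member with at least 20 reads, 0.306 (interval 0.136 to 0.628). Both of its levels lay within the chemoreceptor range, and mural cell markers summed to 31.9 and 29.4 FPKM, with none of 9 at 0. Of the 9, 3 were higher in NeuroD1 in value and 6 lower. Acta2, the highest, stood at 7.63 and 10.9 FPKM, and the other 8 summed to 24.3 and 18.5 FPKM. Neither Acta2 nor Myh11, at 5.73 and 4.87 FPKM, had recovered reads. The pericyte channel Kcnj8, named after its values were seen, stood at 3.38 and 0.604 FPKM on 19 and 3 reads (ratio 0.179, interval 0.0339 to 0.608). It was the only one of 6 mural markers with at least 20 reads whose interval excluded 1, beside 12.4% of protein-coding genes. The part of mural cells in the value of Itga8 was not tested.

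The other subunits of this class were Itga7, a muscle laminin receptor chain, at 3.13 and 3.17 FPKM, Itga9 at 2.296 and 2.33 FPKM, and Itga10, a cartilage collagen receptor chain, at 4.28 and 3.07 FPKM. The epithelial chain Itgb6 stood at 1.78 and 2.596 FPKM, and Itgb8, a glial activator of TGF-beta, was among the lowest members at 0.941 and 0.788 FPKM. None of these 5 had an interval that excluded 1. For Itga10, 33.5% of the exon bases are shared with the predicted gene Gm42957.

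The 5 laminin chains of the vessel wall had a median of 4.27 FPKM with GFP and 4.01 with NeuroD1. Lamb2 (chromosome 9, 108479736 to 108490530), the beta2 chain, led at 7.67 FPKM with GFP and 6.49 with NeuroD1 (ratio 0.847, interval 0.622 to 1.15). It was the one laminin of 11 beyond the chemoreceptor range in both libraries, beside 4379 of 22040 protein-coding genes. Lamc1, the gamma1 chain common to all vascular laminins, stood at 4.27 and 5.14 FPKM (ratio 1.21, interval 0.874 to 1.66). Both alpha chains of endothelial laminin were lower in NeuroD1 in value. Lama5 (chromosome 2, 180176373 to 180225859) stood at 5.45 and 4.01 FPKM on 137 and 89 reads (ratio 0.736, interval 0.557 to 0.968). Lama4 stood at 4.05 and 3.23 FPKM on 108 and 76 reads, and its interval of 0.586 to 1.08 included 1.

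Lamb1 (chromosome 12, 31265234 to 31329644), the beta1 chain that can take the place of beta2 in these trimers, went the other way. It stood at 2.0998 FPKM with GFP and 3.31 with NeuroD1, and its 46 and 64 reads gave a ratio of 1.58 (interval 1.06 to 2.35). When the FPKM of each library were scaled to an equal sum, the interval of Lamb1 was 0.902 to 1.999. The lowest chain of the trimer of alpha5, beta1 and gamma1 was Lamb1 in both libraries. In the trimer with beta2 instead, it was Lamc1 at 4.27 FPKM in GFP and Lama5 at 4.01 FPKM in NeuroD1.

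The glial and meningeal chains stood at 2.85 and 2.86 FPKM for Lama1 and at 2.99 and 3.48 FPKM for Lama2, with intervals of 0.678 to 1.47 and 0.885 to 1.53. Astrocyte markers summed to 22.8 FPKM with GFP and 22.5 with NeuroD1, with none of 8 at 0. The epithelial chains Lama3 and Lamb3 stood at 2.401 and 2.15 FPKM and at 1.71 and 1.94 FPKM, with intervals of 0.591 to 1.35 and 0.624 to 2.06. Lamc3 stood at 2.16 and 2.27 FPKM. These 5 chains lay within the chemoreceptor range in both libraries and none had an interval that excluded 1.

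Over all members, differences were taken as NeuroD1 minus GFP in log2(FPKM + 1), where the 1 added makes differences of low genes look smaller. With 1 library per group they have no replicate check and no p-value. The median difference was -0.02 over the 38 rows, with 19 above 0 and 19 below, beside -0.007 over all protein-coding genes. It was -0.03 for endothelial integrins, 0.10 for leukocyte integrins and 0.0005 for laminins. The background varied with level. At a mean of 2 to 5 FPKM, 46.8% of protein-coding genes were higher in NeuroD1, and at 5 to 10 FPKM 53.9%. This share was 65.2% at 10 to 20 FPKM and 85.2% at 20 to 50 FPKM. Of the 13 members that reached 5 FPKM in either library, none was 2-fold higher or lower (a log2 difference of at least 1), where 3.25% of 6408 protein-coding genes were higher and 3.31% lower. Without that minimum none was either on this scale, and the differences ran from -0.95 for Itga8 to 0.69 for Itgae. By the plain FPKM ratio, among members with at least 20 reads, none was 2-fold higher and 2 were 2-fold lower, Itga8 and Itgad, where 2.77% of 15656 protein-coding genes were higher and 4.44% lower.

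Of the 37 rows with at least 20 reads over both libraries, the interval of 2 lay above 1 (Itgae and Lamb1) and that of 4 below it (Itga8, Itgad, Itgb4 and Lama5). Among 15656 protein-coding genes with as many reads, 6.06% lay above and 6.39% below, 12.4% in all. The members' share, 16.2%, was near that background and is no result about integrins and laminins. Between the libraries the variance of protein-coding genes was 1.86 times counting variance, leaving out Neurod1 and genes above 1000 FPKM. With intervals widened by this factor, Itgae (1.05 to 2.90) and Itga8 (0.118 to 0.795) still excluded 1, and the others did not, where 4.33% of all protein-coding genes did.

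**Figure D2:**
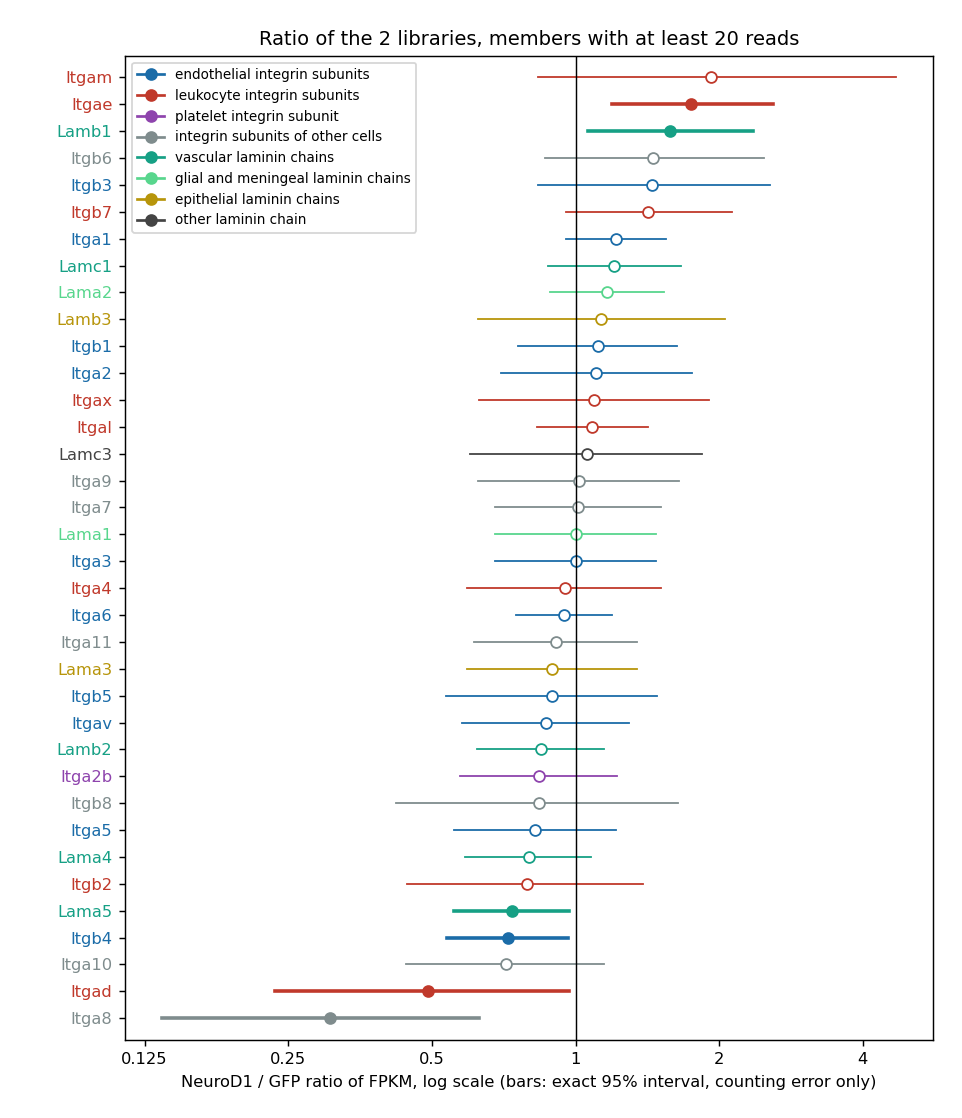
Ratio of NeuroD1 to GFP, on a log scale, for the rows with at least 20 reads except 1 that is not reported, ordered by ratio and coloured by class, with exact 95% intervals from the reads. Filled points mark the 6 members whose interval excludes 1, from Itga8 at 0.306 to Itgae at 1.75, and open points the others.

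Because the delivered factor binds E-boxes, promoters are shown for the 3 members with an interval that excluded 1 and an entry in the RefSeq table. Itgae, Itgb4 and Itgad, the others with such an interval, had no entry. Itgb7, whose interval included 1, is shown as the partner of Itgae. NeuroD1 is known to prefer the E-boxes CAGATG and CAGCTG, which were searched on both strands (CAGATG reads CATCTG on the other strand, CAGCTG is its own complement, and the motifs do not overlap one another). RefSeq promoters of GRCm38.p6, from 250 bases before to 50 after the start site, were found for 23 of 37 symbols, 26 promoters in all. The stretches below end 30 bases after the start site, run 5′ to 3′ along the gene and show a motif in capitals. They lie at chr15:102231906-102232185 on the minus strand for Itgb7, chr12:31265043-31265322 on the plus strand for Lamb1, chr2:180225830-180226109 on the minus strand for Lama5 and chr2:12301915-12302194 on the minus strand for Itga8.
Itgb7: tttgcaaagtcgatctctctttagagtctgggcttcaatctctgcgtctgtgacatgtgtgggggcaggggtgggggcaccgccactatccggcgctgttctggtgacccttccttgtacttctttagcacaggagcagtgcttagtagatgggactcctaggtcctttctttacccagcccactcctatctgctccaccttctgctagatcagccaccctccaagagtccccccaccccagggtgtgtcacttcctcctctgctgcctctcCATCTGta
Lamb1: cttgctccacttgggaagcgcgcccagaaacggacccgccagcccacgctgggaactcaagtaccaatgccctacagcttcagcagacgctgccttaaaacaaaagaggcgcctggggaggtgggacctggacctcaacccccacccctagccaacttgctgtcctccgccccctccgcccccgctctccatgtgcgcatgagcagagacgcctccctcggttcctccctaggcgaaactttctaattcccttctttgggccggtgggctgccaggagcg
Lama5: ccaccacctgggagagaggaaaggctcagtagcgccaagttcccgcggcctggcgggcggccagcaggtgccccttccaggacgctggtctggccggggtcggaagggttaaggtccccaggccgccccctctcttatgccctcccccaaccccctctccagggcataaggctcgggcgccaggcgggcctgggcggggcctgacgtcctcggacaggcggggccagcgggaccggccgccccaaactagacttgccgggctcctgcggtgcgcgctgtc
Itga8: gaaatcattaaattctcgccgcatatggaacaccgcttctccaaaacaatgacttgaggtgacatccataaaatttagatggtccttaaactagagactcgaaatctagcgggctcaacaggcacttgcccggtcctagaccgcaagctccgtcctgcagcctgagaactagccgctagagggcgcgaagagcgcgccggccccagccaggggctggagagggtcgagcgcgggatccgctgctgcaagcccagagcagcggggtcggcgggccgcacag

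Of these 4 promoters only that of Itgb7, whose ratio interval included 1, held a motif. It was 1 CAGATG read on the other strand, which begins 23 bases into the transcript. Among the 26 member promoters 12 (46.2%) held either motif, 7 of them CAGATG and 8 CAGCTG, beside 27.7% of 20007 promoters of protein-coding genes. Promoters of Itga1 and Itga5 and 1 of the promoters of Lamb3, all with ratio intervals that included 1, held both motifs. A match describes the letters of this window and does not mark a bound site.

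Across the 38 rows, level went with base composition. Mean FPKM had a Spearman rho of 0.471 and a Pearson r of 0.436 with the GC content of the longest transcript. All protein-coding genes had a rho of 0.218 and an r of -0.016. Both r values were taken on FPKM without logs. Protein-coding genes reach 519440 FPKM in GFP, so their r rests on a few extreme genes and cannot be set against that of the members. Members share 2 libraries and these are descriptions across genes. The 12 members over 55% GC, among them Itgb4, Itgb7, Lamb2 and Lama5, had a median of 5.41 FPKM with GFP and 4.78 with NeuroD1, against 2.401 and 2.396 FPKM for the 8 at or below 45%. Chemoreceptor genes are mostly of low GC, with 1357 of them at or below 45% and 4 over 55%, so for the GC-rich members the chemoreceptor range compares genes of unlike composition. Itga6 at 48.9% and Itgb1 at 44.8% GC were high for their GC, where all protein-coding genes had medians of 3.32 and 2.41 FPKM in GFP for 45 to 50% and for up to 45%. With exon length, mean FPKM had a rho of -0.275 among members and 0.148 among all protein-coding genes. Reads per gene had a rho of 0.344 with exon length among members and 0.774 among all protein-coding genes. The reverse transcription primers were those of DRUG-seq, which tags the 3′ end of transcripts, whereas FPKM divides by the whole exon length. The part of this in the order of the member levels was not tested.

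**Figure D3:**
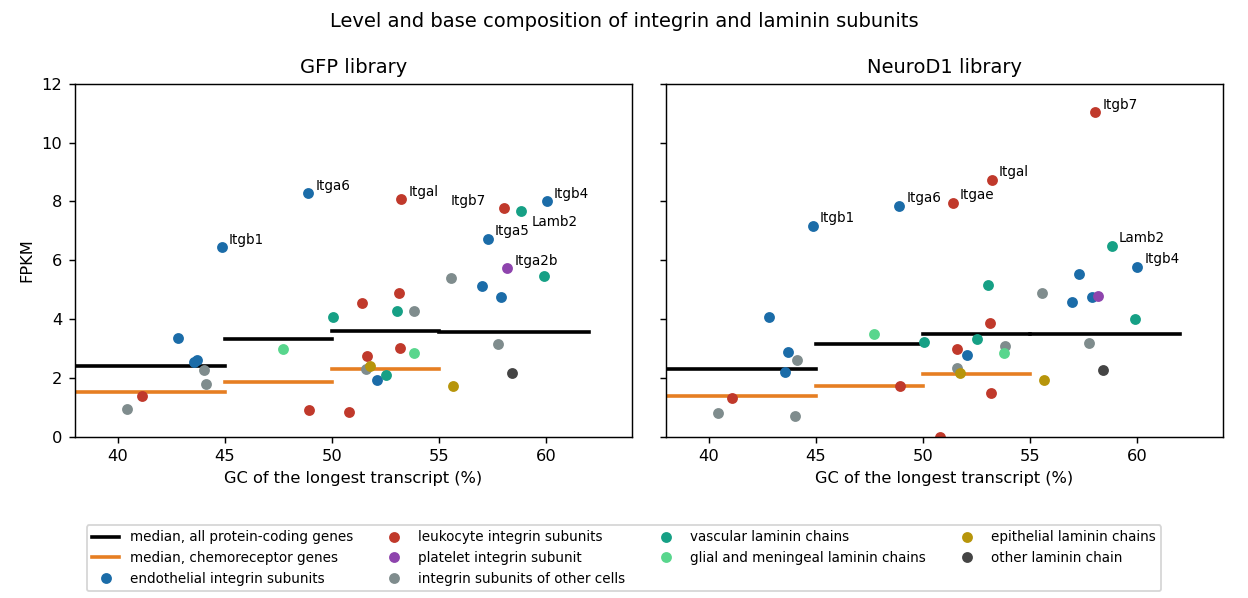
FPKM of 37 of the 38 member rows against the GC content of its longest transcript in the GFP library (left) and the NeuroD1 library (right), with horizontal lines at the median of all protein-coding genes and of chemoreceptor genes in the same GC range where at least 20 genes lie in it. Itga6 and Itgb1 stand above genes of like GC in both panels, while many of the highest members, Itgb7, Itgb4 and Lamb2 among them, lie over 55% GC.

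The proteins that couple integrins to actin had like differences in both directions. Of 24 activators and adaptors, 12 were higher in NeuroD1 in value and 11 lower, and Ilk, the integrin-linked kinase, was listed at 0 in both libraries. Of 22040 protein-coding genes, 666 were listed at 0 in GFP and 864 in NeuroD1. Whether a listed 0 reflects expression or the counting of shared reads was not tested. The median difference of the 24 was 0.001, with none of 16 past the FPKM minimum 2-fold different. Intervals of 2 of 22 lay above 1 and of 3 below, beside 6.06% and 6.39% of protein-coding genes. Lims2, a partner of the integrin-linked kinase, was highest at 20.7 and 24.6 FPKM. The GTPase Rap1a was next by mean level, at 16.1 and 13.4 FPKM, though Rap1b and Tns3 stood above it in NeuroD1. Fermt3, the kindlin of blood cells, had the largest difference, 0.71, at 5.42 and 9.51 FPKM with no recovered reads. Lims1 had 4.07 and 6.39 FPKM (ratio 1.57, interval 1.05 to 2.37), and the scaffold Bcar1 at 5.38 and 2.93 FPKM (ratio 0.545, interval 0.328 to 0.886). The others with an interval past 1, named after their values were seen, were the tensins Tns3 (ratio 1.31) and Tns1 (ratio 0.810) and the parvin Parvb (ratio 0.670).

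Of 15 basement membrane partners and integrin ligands, 10 were higher in value and 5 lower, with a median difference of 0.14. The secreted integrin ligand Spp1 stood at 1.92 FPKM with GFP and 6.22 with NeuroD1, on 7 and 20 reads (ratio 3.24, interval 1.31 to 9.06), and was the one of 10 past the minimum that was 2-fold higher, beside 3.25% of protein-coding genes. Intervals of 1 of 15 lay above 1 and of 1 below, 13.3% beside a background of 12.4%. Nid2, which links laminin to collagen IV, stood at 6.12 and 3.77 FPKM (ratio 0.615, interval 0.403 to 0.925). Dag1, the dystroglycan that binds laminin, stood at 6.27 and 4.52 FPKM (interval 0.506 to 1.02). The highest were the collagen-binding Sparc, at 13.9 and 15.2 FPKM, and Bcam, a receptor of laminin alpha5, at 9.06 and 9.78 FPKM, both with intervals that included 1.

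Among 10 counter-receptors of leukocyte integrins, 2 were higher in NeuroD1 in value and 7 lower, and Icam4 was listed at 0 in both. The median difference was -0.09, and none of 6 past the minimum was 2-fold different. Icam1, a ligand of LFA-1, stood at 7.79 FPKM with GFP and 4.704 with NeuroD1 (ratio 0.604, interval 0.401 to 0.898). Icam2, another ligand of LFA-1, stood at 8.797 and 5.39 FPKM (interval 0.337 to 1.08), and Madcam1, the ligand of alpha4 beta7, at 5.04 and 3.93 FPKM (interval 0.327 to 1.79). Jam2 and F11r, junctional ligands, stood at 7.48 and 7.77 FPKM and at 7.65 and 6.93 FPKM. Named after their values were seen, Vcam1, the ligand of VLA-4, had an interval below 1 (ratio 0.651) and Jam3 one above it (ratio 3.15). Intervals of 3 of 9 counter-receptors thus excluded 1, beside 12.4% of protein-coding genes.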

How the data were processed

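The authors deposited FPKM values, with 1 column per library. Their upstream steps, per the submitters' processing notes, used the GRCm38 build, DESeq (version not named), featureCounts 1.6.3 and Bowtie2 2.3.5.1. How strand, reads shared by genes and molecular identifiers were handled was not stated. The members and lists were chosen with earlier results of these data known.

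FPKM times merged exon length in GENCODE M21 comes in equal steps (452.7 for GFP, 512.7 for NeuroD1), each worth 1 read, which gave reads within 0.02 of a whole number for 95.7% of rows. Another 1136 rows, with Itga5, Itgb5, Itgb7 and Lama1 among them, were solved from the ratio of the libraries, accepting an implied length within 10% of the annotated one. These steps were tested on simulated data. FPKM were kept as the authors scaled them. Intervals are exact Clopper-Pearson 95% intervals for ratios and Poisson ones for levels, and cover counting error only. Ratios compare the 2 libraries, not the conditions.

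Every member could be named, except 1 laminin chain that enters the counts and medians but is not reported here. From each pathway list the 3 largest differences past 5 FPKM and the 2 highest mean FPKM were named, and from each marker list up to the 2 highest. Of the listed markers, Trac was not analysed here. Software was Python 3.11.15 with pandas 2.3.3, numpy 2.4.6, matplotlib 3.10.9 and scipy 1.17.1.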

Additional observations from a re-analysis of the deposited data

How the results depend on the processing

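No paired analysis was possible because GFP and NeuroD1 have 1 library each, and for that reason no library could be left out. Widened intervals, reads from annotated lengths only, intervals without genes above 1000 FPKM, the plain FPKM ratio and medians without the second Itgam row were chosen after seeing the data. No member was 2-fold higher or lower under the 8 alternatives that kept a pseudocount. One of these asked for 20 FPKM, which no member reached (the highest was 11.03 FPKM), so it could call none. Another added 5 in place of 1, which makes differences of low genes look smaller still. By the plain FPKM ratio with no FPKM minimum, 2 members were lower (Itga8 and Itgad) and none higher. The count of intervals that excluded 1, 6 of 37, was 2 with intervals widened for the variance between the libraries. It was 8 when the FPKM of each library were scaled to an equal sum, where Lamb1 no longer excluded 1 and Itga10, Lama4 and Lamb2 lay below it. That scaling lowers every NeuroD1 value alike and moved the median difference of the members to -0.183, and that of all protein-coding genes to -0.181. The leukocyte median was -0.11 under it and -0.003 as a mean. Under the other settings the medians of members, endothelial integrins and laminins kept within 0.1 of 0. With 9 to 303 reads per member over both libraries, a difference smaller than the intervals was not detectable.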
